A study of Mus musculus with 10 samples.

Results

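The genes described here encode the proteasome and the proteins that build, cap or activate it. They were taken as every gene whose symbol begins with Psma, Psmb, Psmc, Psmd, Psme, Psmf or Psmg followed by a digit, without Psmb8 and Psmb9, in the annotation of the array. The rule found 83 probes for 47 genes, of 19057 annotated genes and 45281 probes on the array. Of these 47 genes, 39 were measured, by 61 probes detected on at least 4 of the 10 arrays (detection p under 0.05). Liver RNA came from 6 FVB mice with LKB1 overexpressed and from 4 untreated FVB mice, with 1 Illumina bead array per mouse. FVB is an inbred laboratory strain, and LKB1 (gene Stk11) is a kinase that switches on AMPK and its relatives. The LKB1 mice received a plasmid for wild-type LKB1 into the tail vein, with 1 injection per week for 8 weeks. The tissue is labelled liver, although the source field names hepatocytes. Neither the plasmid's promoter, the share of hepatocytes that took it up nor the age of the mice was stated in the labels. Since the controls are labelled untreated, effects of injection, of plasmid DNA and of LKB1 itself cannot be told apart. In such bulk RNA, fewer cells of a type and less RNA per cell cannot be told apart either.

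The proteasome degrades proteins that have been tagged with ubiquitin. Its core particle is a barrel of stacked rings, in which outer rings of alpha subunits (Psma genes) gate the entry and inner rings of beta subunits (Psmb genes) carry the proteolytic sites. A regulatory particle caps the barrel: its ring of ATPases (Psmc genes) unfolds the substrate, and its non-ATPase subunits (Psmd genes) bind the ubiquitin chain and cut it off. Activators (Psme genes) can replace that cap, and dedicated chaperones assemble the core (Psmg genes, Pomp) and the base of the cap (Psmd5, Psmd9, Psmd10). In liver the proteasome degrades regulatory enzymes, damaged proteins and the precursors of peptides shown on MHC class I molecules.

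Both groups carried hepatocyte transcripts. All 8 hepatocyte markers were measured, and their summed intensity was 98600 to 109900 in LKB1 livers and 98580 to 107000 in untreated livers. That sum rests mainly on the brightest markers, Apoa1, Apoa2, Ttr and Cps1. The single markers, 4 higher and 4 lower in LKB1 livers, had log2 fold changes from -0.189 (Tat) to 0.276 (Serpina1c). Of the markers of neutrophils, 1 of 6 was measured, and of T and B lymphocytes 4 of 9. Markers of other cells were measured as well. These were 10 of 12 for Kupffer cells and macrophages, 6 of 7 for sinusoidal endothelium and 5 of 7 for stellate cells. For cholangiocytes they were 2 of 6 and for red cells 3 of 4. Between 15374 and 16839 probes were detected per array, and kept probes of 2 arrays correlated at 0.983 to 0.994. Stk11 had a log2 intensity of 9.66 ± 0.08 (SD, n = 6) in LKB1 livers and 9.60 ± 0.12 (SD, n = 4) in untreated livers, a difference smaller than the spread between mice (limma adjusted p = 0.93). Where its probe lies on the transcript is not given here, so it does not check the labels. Arrays were clustered on the intensities of probes detected on no array, with the number of sets fixed at 2. Set A holds LKB1 replicates 1, 2 and 4 and untreated replicates 1 and 2. Set B holds LKB1 replicates 5, 6 and 7 and untreated replicates 3 and 4. The division is weak, with a mean Spearman correlation over these probes of 0.522 within sets and 0.482 between them. Values within the sets are given where they bear on a result.

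Between LKB1 and untreated livers, 0 of 39 proteasome genes had an adjusted p under 0.05 (limma with Benjamini-Hochberg adjustment over all kept probes), as did 0.0% of all 9725 measured genes. The smallest adjusted p among them was 0.517. At an unadjusted p under 0.05 there were 2 proteasome genes, Psme2 and Psmd9, which is 5.13% of those measured, against 6.3% of all genes. Both were lower in LKB1 livers, as were 3.1% of all genes at this p, while 3.21% were higher. The log2 fold change was above 0 in 17 genes and below 0 in 22, with a median of -0.0145, against a median of -0.00253 over all genes, of which 50.8% lay below 0. On the brightest probe of each gene, values ran from -0.25 for Psme2 to 0.17 for Psmd2. The fold change on these probes thus reached 1.19 in either direction at most. Psmd2 lay near background and was detected in 3 LKB1 livers and 1 untreated liver. Dimmer kept probes reached 0.36 in Psmd7 and -0.32 in Psmg2. With array medians made equal in place of equal distributions, 38 of 39 genes lay below 0, with a median of -0.231. The median over all genes moved to -0.157 as well.

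**Figure D1:**
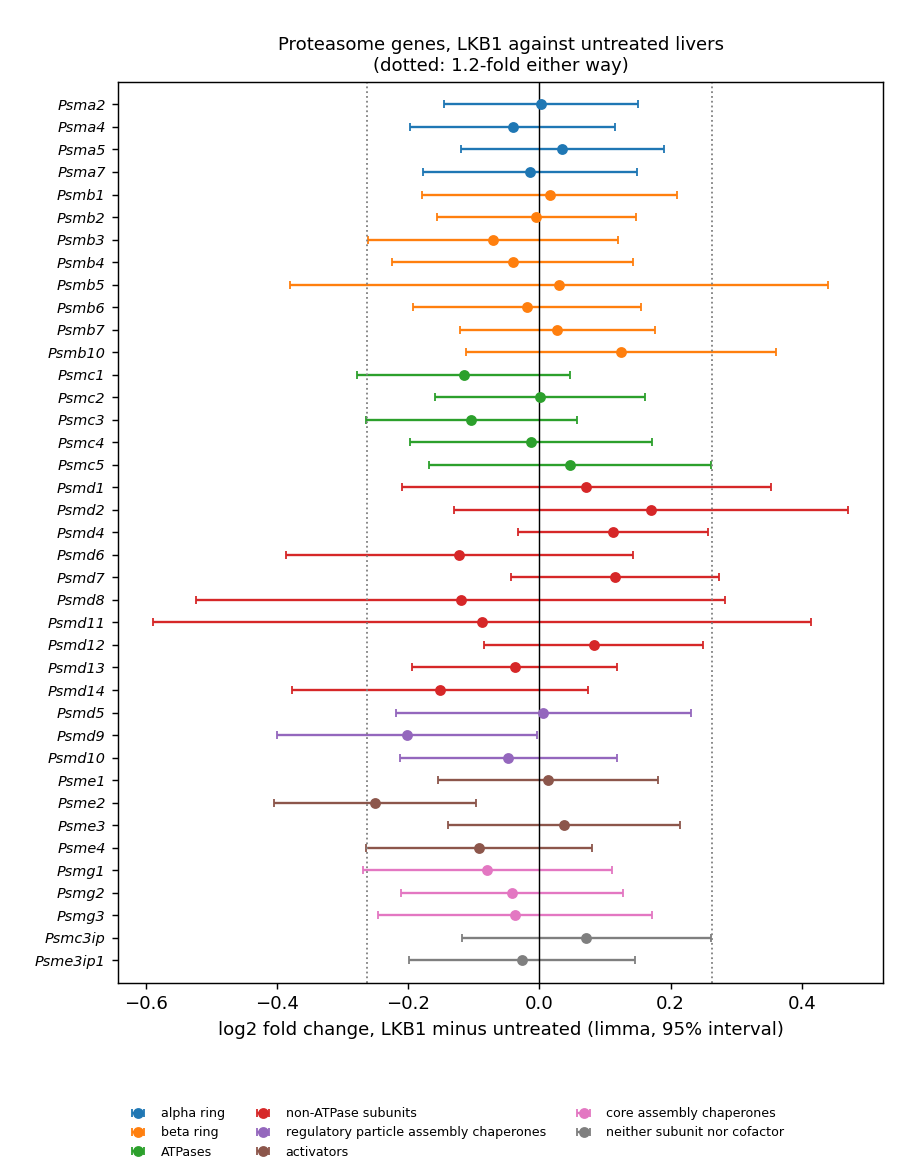
Log2 fold change of each of the 39 measured proteasome genes, LKB1 minus untreated (horizontal axis), with its 95% confidence interval from limma; colours give the role and dotted lines mark a change of 1.2-fold either way. Values are from arrays normalized to equal distributions. Apart from Psme2 and Psmd9 every interval crosses 0, and 24 of the 39 lie between the dotted lines.

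The 95% confidence interval lay within 1.2-fold of no change in both directions in 24 of the 39 genes (61.5%), which held for 28.3% of all genes. With a bound of 1.3-fold it did so in 32 (82.1%), against 65.4% of all genes. These counts, and the SDs below, rest on arrays normalized to equal distributions. With array medians made equal instead, the median log2 fold change of the 39 genes was -0.231, against -0.157 over all genes. Intervals under that setting are not given here. The SD between mice within groups had a median of 0.0968 on the log2 scale for proteasome genes and 0.166 for all genes. Probe intensity moves with this, since the median log2 intensity was 10.2 for proteasome genes and 7.32 for all genes. Above a log2 intensity of 10 lay 21 proteasome genes and 1580 genes in all, still with unlike median log2 intensities of 11.5 and 11.1. Their median SDs were 0.080 and 0.115, and the interval was within 1.2-fold in 76.2% and 55.0% of them. At the bound of 1.3-fold it was so in 21 of the 21 proteasome genes and in 84.9% of all genes there. Ranking by this spread placed Psmd11, Psmb5 and Psmd8 at the wide end, with SDs of 0.43, 0.34 and 0.34, and Psmd4, Psma2 and Psmb7 at the narrow end, with 0.044, 0.052 and 0.053.

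**Figure D2:**
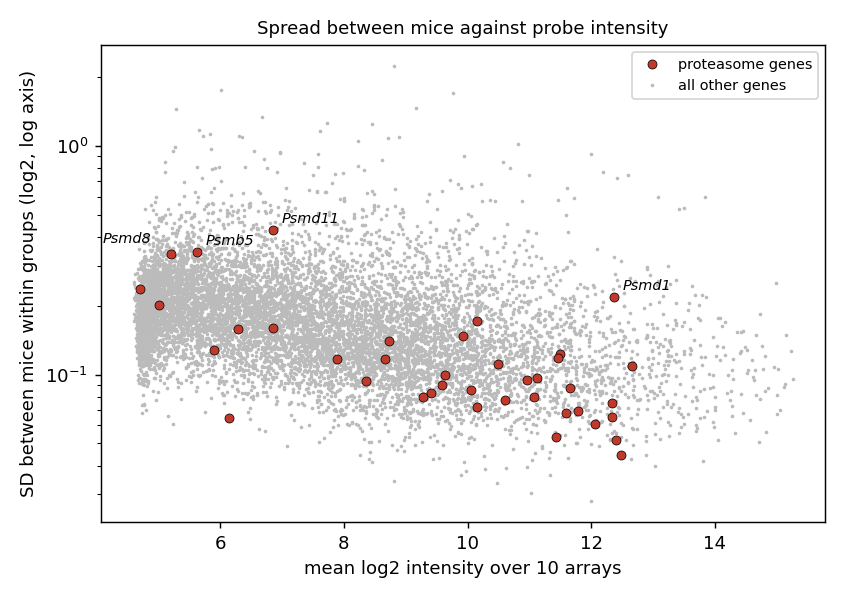
SD between mice within groups (vertical, log axis) against the mean log2 intensity over 10 arrays (horizontal) for the 39 proteasome genes (red) and all other measured genes (grey). Most red points lie in the lower part of the cloud, with Psmd11, Psmb5, Psmd8 and Psmd1 above the other proteasome genes of like intensity.

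On arrays normalized to equal distributions, the level of the proteasome genes as a group varied little from mouse to mouse. Medians by mouse under other normalizations are not given here. The median over the 39 genes of the difference from the untreated mean was -0.048, 0.022, 0.0052, -0.027, 0.012 and -0.050 in LKB1 replicates 1, 2, 4, 5, 6 and 7, against -0.00098, 0.0077, 0.041 and -0.028 in untreated replicates 1, 2, 3 and 4. The groups overlapped, with LKB1 replicates 1 and 7 below every untreated mouse and untreated replicate 3 above every LKB1 mouse. Untreated replicate 3, the highest for proteasome genes, was also the highest over all genes, with a median of 0.040.

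**Figure D3:**
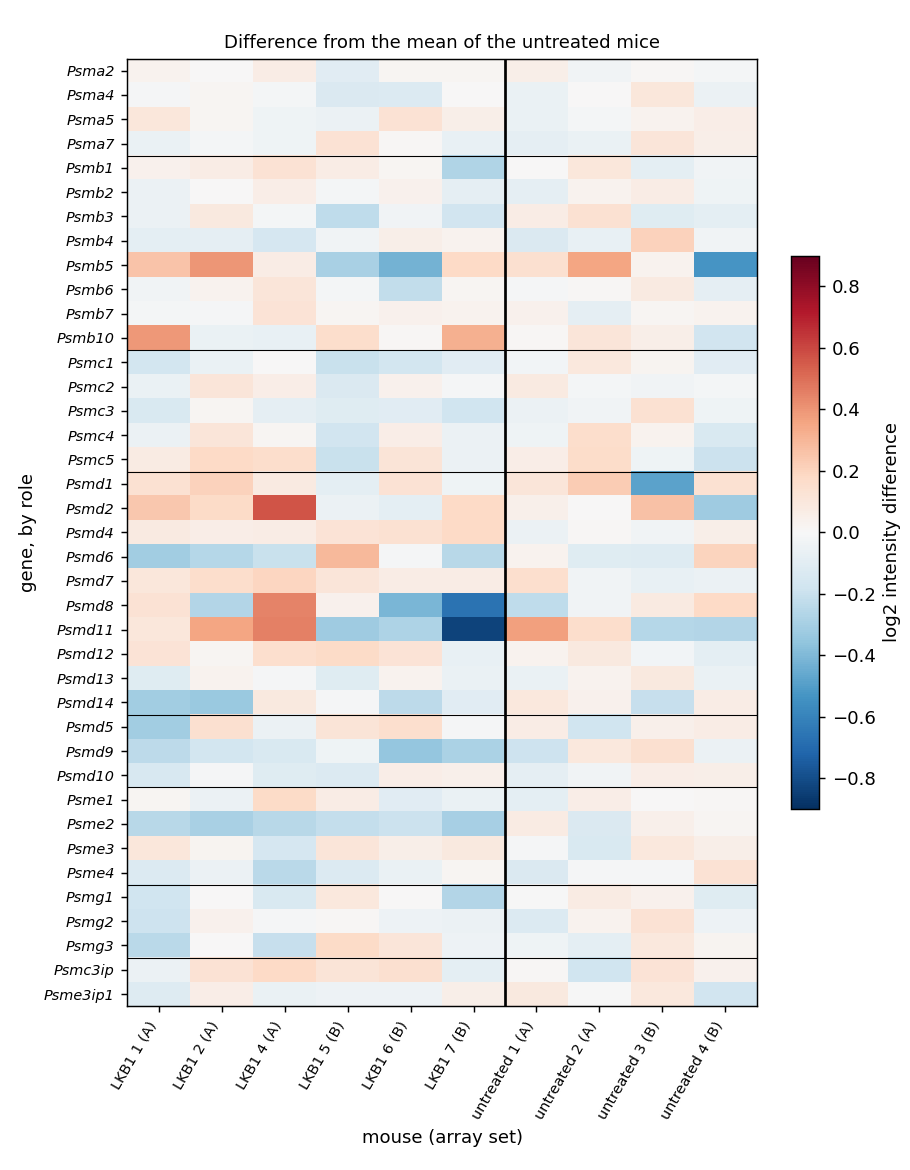
Difference of each gene's log2 intensity from the mean of the untreated mice (colour), for the 39 measured proteasome genes (rows, by role) in the LKB1 mice (left of the line) and the untreated mice (right); letters in brackets give the array set. Psme2 is below the untreated mean in all 6 LKB1 mice, while Psmd11 and Psmb5 vary by mouse and array set and no column is of 1 colour.

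No measured gene of the alpha ring passed the test. Of 8 genes, 4 were measured, with log2 fold changes from -0.041 for Psma4 to 0.035 for Psma5. Psma4 had log2 intensities of 11.80, 11.83, 11.79, 11.68, 11.69 and 11.81 in LKB1 livers, against 11.75, 11.81, 11.91 and 11.76 in untreated livers. Psma5 had 12.42, 12.34, 12.28, 12.27, 12.45 and 12.37 in LKB1 livers, against 12.26, 12.30, 12.35 and 12.38 in untreated livers. The groups overlapped in both genes. Psma2, at 0.0023, had a 95% interval for its fold change from 0.904 to 1.11. The probes of Psma1, Psma3 and Psma6, which are obligatory ring members, were detected on no array, and those of Psma8, a testis-specific subunit, on at most 1, so nothing is known here about these genes.

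In the beta ring 8 of 9 genes were measured, 4 above and 4 below 0, and none passed the test. Psmb7 carries the trypsin-like site, and its log2 intensity was 11.44 ± 0.050 (SD, n = 6) in LKB1 livers and 11.41 ± 0.059 (SD, n = 4) in untreated livers, a fold change of 1.02 with an interval from 0.919 to 1.13. Its other 3 kept probes gave log2 fold changes between -0.076 and 0.040. Psmb6, with the caspase-like site, had 11.11, 11.17, 11.25, 11.12, 10.92 and 11.16 in LKB1 livers, against 11.13, 11.15, 11.22 and 11.06 in untreated livers. The lowest mouse of either group was LKB1 replicate 6, and the other 9 lay within the range of the untreated mice or just above it. Psmb5, with the chymotrypsin-like site that proteasome inhibitors of clinical use block, had 5.86, 6.00, 5.67, 5.31, 5.18 and 5.78 in LKB1 livers, against 5.75, 5.96, 5.63 and 5.08 in untreated livers. Its groups overlapped over nearly the whole range, and its interval was wide, from 0.769-fold to 1.36-fold. Psmb3, a structural subunit, had 11.45, 11.59, 11.48, 11.27, 11.47 and 11.33 in LKB1 livers, against 11.57, 11.64, 11.39 and 11.41 in untreated livers, with a log2 fold change of -0.071 ± 0.088 (SE). The remaining members Psmb1, Psmb2 and Psmb4 had log2 fold changes of 0.016, -0.0045 and -0.040, and Psmb11, the subunit of thymic epithelium, was detected on no array.

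Interferon exchanges the standard catalytic subunits for inducible ones. Psmb10, which takes the place of Psmb7, had 10.48, 10.03, 10.02, 10.25, 10.10 and 10.41 in LKB1 livers, against 10.10, 10.20, 10.14 and 9.92 in untreated livers. LKB1 replicates 1, 5 and 7 lay above every untreated mouse, and the other LKB1 mice lay among the untreated ones. The log2 fold change was 0.12 ± 0.11 (SE, limma adjusted p = 0.88), 0.03 in array set A and 0.22 in set B, and its other probe gave 0.11. It lay between 0.069 (without untreated replicate 4) and 0.16 (without LKB1 replicate 4) with any 1 mouse left out, and was -0.095 with array medians made equal. For Psmb9, the inducible partner of Psmb6, the log2 fold change was 0.28 ± 0.21 (SE), and for Psmb8, that of Psmb5, it was -0.03 ± 0.14 (SE), with 0.10 on its other probe. Of 16 interferon-stimulated genes listed, 14 were measured, 12 higher and 2 lower in LKB1 livers, and none passed the test. That list holds Psmb8 and Psmb9. Its summed intensity was 4771 to 8819 in LKB1 livers and 5402 to 5860 in untreated livers, and its part in the Psmb10 values was not tested.

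The activators held the proteasome gene of smallest p, Psme2. Psme1 and Psme2 encode the alpha and beta subunits of one interferon-inducible ring that opens the core particle. Psme2 had log2 intensities of 6.04, 6.00, 6.05, 6.08, 6.10 and 6.00 in LKB1 livers, against 6.37, 6.16, 6.34 and 6.31 in untreated livers. All 6 LKB1 mice lay below all 4 untreated mice. Groups without overlap were found in 2 proteasome genes, Psme2 and Psmd4 (5.13%), against 1.32% of all genes, and in the lower direction in 0.792% of all genes. The log2 fold change of Psme2 was -0.25 ± 0.07 (SE), a fold change of 0.841 with an interval from 0.755 to 0.935, and an unadjusted p of 0.00391, but its adjusted p over all kept probes was 0.517 (limma). The difference was -0.24 in array set A and -0.27 in set B, and lay between -0.29 and -0.23 with any 1 mouse left out. With array medians made equal it was -0.37 and with a larger offset of 50 it was -0.17. Psme2 rests on 1 probe of low intensity, and the mouse genome holds a close copy, Psme2b. Whether the probe also binds its transcript was not tested.

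For its ring partner the groups overlapped. Psme1 had 11.68, 11.61, 11.83, 11.73, 11.56 and 11.60 in LKB1 livers, against 11.57, 11.72, 11.66 and 11.67 in untreated livers. The untreated values lay inside the range of the LKB1 values, with a log2 fold change of 0.01 ± 0.08 (SE) and 0.04 on the other probe. Whether the difference of Psme2 departs from that of Psme1 was not tested. Psme4, a large monomeric activator, had 10.91, 10.98, 10.79, 10.91, 10.97 and 11.05 in LKB1 livers, against 10.90, 11.02, 11.02 and 11.16 in untreated livers, with a log2 fold change of -0.09 ± 0.08 (SE) and 0.01 on its other probe. Psme3, the activator of the nucleus, was at 0.038.

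**Figure D4:**
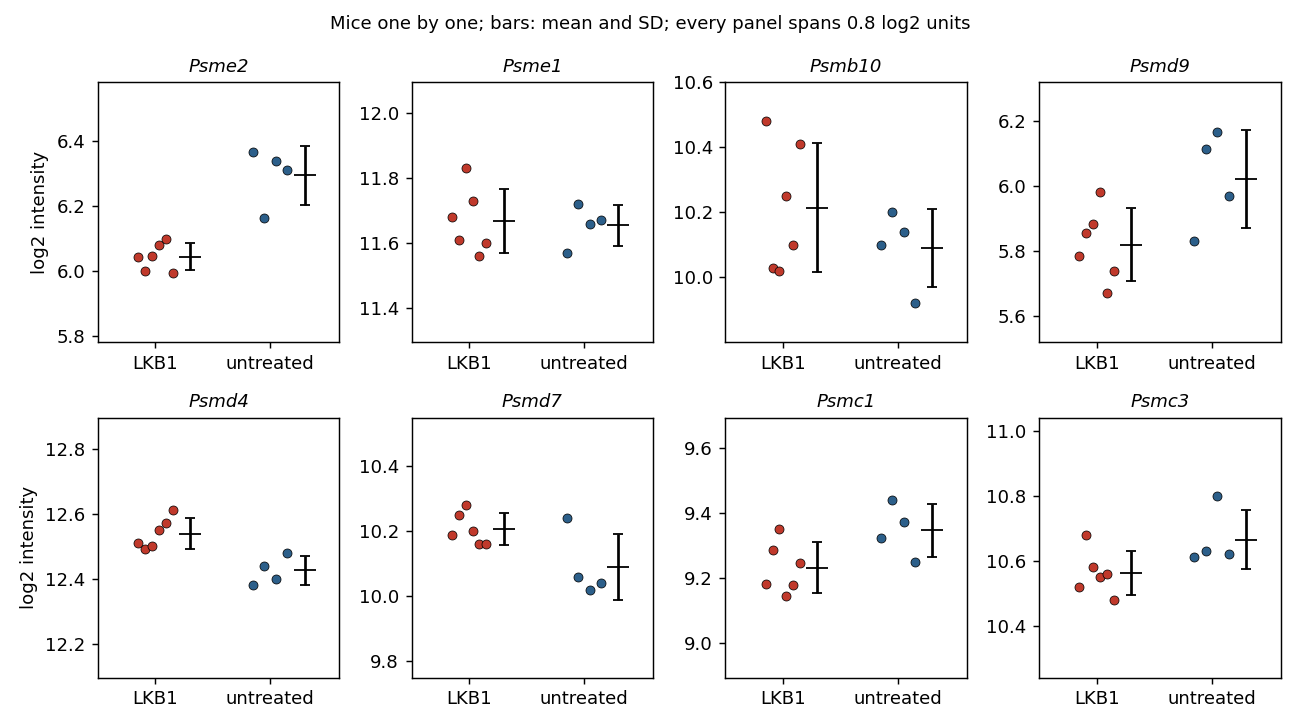
Log2 intensity of 8 proteasome genes in each mouse, LKB1 (red) left of untreated (blue), with mean and SD beside the points; all panels span the same log2 range. The groups are apart in Psme2 (LKB1 lower) and Psmd4 (LKB1 higher, by a smaller step) and overlap in the other panels.

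The ATPases of the cap were measured in 5 of 6 genes, 2 above and 3 below 0, between -0.12 and 0.047. Psmc1 had 9.18, 9.29, 9.35, 9.15, 9.18 and 9.25 in LKB1 livers, against 9.32, 9.44, 9.37 and 9.25 in untreated livers. LKB1 replicates 1, 5 and 6 lay below all untreated mice, LKB1 replicate 7 was level with the lowest of them, and the other LKB1 mice overlapped them, with a log2 fold change of -0.12 ± 0.07 (SE, limma adjusted p = 0.834). Psmc3 had 10.52, 10.68, 10.58, 10.55, 10.56 and 10.48 in LKB1 livers, against 10.61, 10.63, 10.80 and 10.62 in untreated livers, with a log2 fold change of -0.10 ± 0.07 (SE). It was highest in untreated replicate 3, without which it differed by -0.059. Psmc2 and Psmc4 were at 0.00071 and -0.013. Psmc5 was at 0.047 on its brighter probe and 0.14 on the other, and was looked at after its values were seen. Psmc6 was detected on at most 1 array.

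Among the non-ATPase subunits of the cap 10 of 11 genes were measured, 5 above and 5 below 0, with a median of 0.017. Psmd4, a receptor for ubiquitin chains, had 12.51, 12.49, 12.50, 12.55, 12.57 and 12.61 in LKB1 livers, against 12.38, 12.44, 12.40 and 12.48 in untreated livers. The 6 LKB1 mice lay above the 4 untreated mice, although LKB1 replicate 2 and untreated replicate 4 were close, at 12.49 and 12.48. The log2 fold change was 0.11 ± 0.07 (SE), a fold change of 1.08 with an interval from 0.978 to 1.195 (limma adjusted p = 0.819). With array medians made equal the value was -0.12. Psmd7, a scaffold partner of the deubiquitinase, had 10.19, 10.25, 10.28, 10.20, 10.16 and 10.16 in LKB1 livers, against 10.24, 10.06, 10.02 and 10.04 in untreated livers. Untreated replicate 1 lay among the LKB1 mice and the other 3 below them. The log2 fold change was 0.12 ± 0.07 (SE) on the brightest probe and 0.10 and 0.36 on the others, or -0.10 on the brightest with array medians made equal.

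Psmd14, the deubiquitinase that removes the chain from the substrate, had 6.63, 6.62, 7.04, 6.94, 6.71 and 6.85 in LKB1 livers, against 7.05, 6.98, 6.74 and 7.02 in untreated livers. The groups overlapped, and the log2 fold change was -0.15 ± 0.10 (SE), with -0.0080 on the other probe. Psmd12 and Psmd13, subunits of the lid, were at 0.083 and -0.038. Psmd2, Psmd6 and Psmd8 lay near background and were detected on 4, 9 and 9 of 10 arrays, with log2 fold changes of 0.17 ± 0.14, -0.12 ± 0.12 and -0.12 ± 0.19 (SE). Within array sets Psmd8 gave 0.24 (set A) and -0.48 (set B). Psmd3 was detected on no array.

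Psmd11 and Psmd1 were singled out after their values were seen. Psmd11, a lid subunit, had 7.004, 7.26 and 7.35 in LKB1 livers of array set A and 6.58, 6.63 and 6.07 in those of set B. In untreated livers it had 7.27 and 7.06 in set A and 6.65 and 6.64 in set B. All 5 mice of set A lay above all 5 of set B, whichever their treatment, by 0.68 ± 0.12 (SE, limma adjusted p = 0.041 over all kept probes, with the group as a term). The sets were found by clustering these same arrays, on other probes, so this p cannot be read at its usual level. A call at that threshold was made in 1 of 39 proteasome genes and in 0.658% of all genes. At an unadjusted p under 0.05 the sets differed in 5 proteasome genes, Psmd11, Psmb5, Psmc5, Psmb3 and Psmg3, against 19.4% of all genes. Psmb5 averaged 5.85 in set A and 5.40 in set B. Psmd1, the largest scaffold subunit of the base, had 12.47, 12.54, 12.41, 12.24, 12.46 and 12.29 in LKB1 livers, against 12.44, 12.56, 11.85 and 12.47 in untreated livers. The low value of untreated replicate 3 recurred on the second probe of Psmd1, at 11.71 against 12.13, 12.15 and 12.19 in the other untreated mice, where LKB1 livers ranged between 11.77 and 12.30. On the remaining, dimmer probe this mouse did not stand apart, at 7.459 against 7.826, 8.041 and 7.509 in the other untreated mice. Without this mouse the log2 fold change was -0.089, against 0.072 with it.

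**Figure D5:**
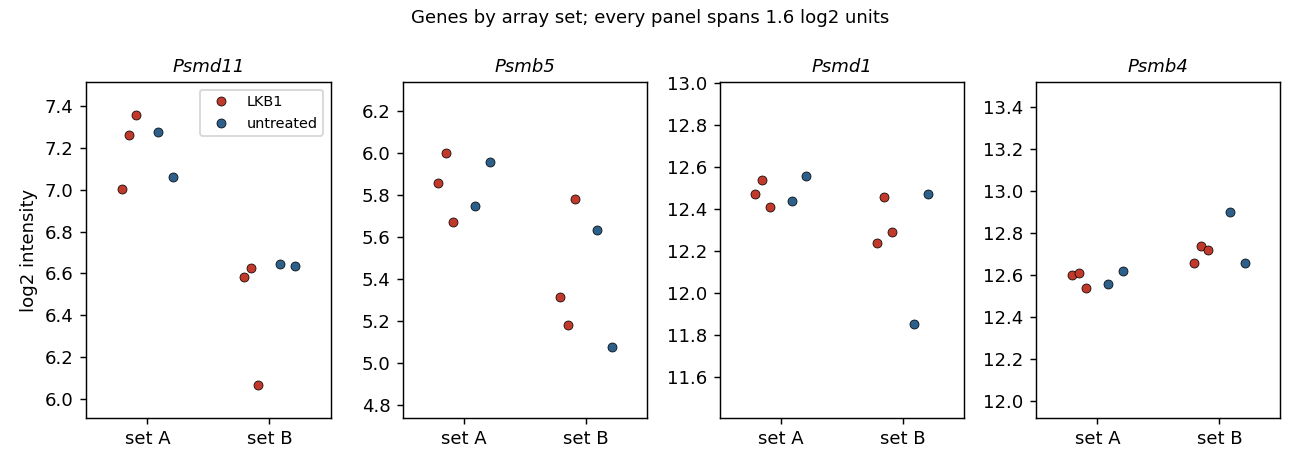
Log2 intensity of 4 proteasome genes by array set, set A left and set B right, with LKB1 mice in red and untreated mice in blue; all panels span the same log2 range. Psmd11 separates the sets in both groups, Psmb5 is lower on average in set B, 1 untreated mouse is low in Psmd1, and Psmb4 is slightly higher in set B.

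Of the chaperones that assemble the base of the cap, Psmd9 was lower at an unadjusted p of 0.0467 (limma adjusted p = 0.745). It had 5.79, 5.86, 5.89, 5.98, 5.67 and 5.74 in LKB1 livers, against 5.83, 6.12, 6.17 and 5.97 in untreated livers. Untreated replicate 1 lay among the LKB1 mice, and LKB1 replicate 5 lay above untreated replicate 4. The log2 fold change was -0.20 ± 0.09 (SE), with -0.15 on a dimmer probe, and it was between -0.26 and -0.15 with any 1 mouse left out. Psmd10, known as gankyrin and described as an oncoprotein in liver cancer, had 9.29, 9.43, 9.33, 9.31, 9.50 and 9.48 in LKB1 livers, against 9.35, 9.41, 9.50 and 9.49 in untreated livers. Its groups overlapped, and its 3 probes gave -0.047, -0.079 and -0.029. Psmd5 was at 0.0059.

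The core assembly chaperones were measured in 3 of 4 genes, all 3 below 0 by small amounts. Psmg1 had 8.53, 8.71, 8.57, 8.81, 8.71 and 8.45 in LKB1 livers, against 8.71, 8.78, 8.75 and 8.60 in untreated livers, with a log2 fold change of -0.079 ± 0.087 (SE). Psmg2, which forms a dimer with Psmg1, had 9.42, 9.64, 9.59, 9.61, 9.56 and 9.55 in LKB1 livers, against 9.48, 9.64, 9.74 and 9.56 in untreated livers. Groups overlapped in both. Its brightest probe gave -0.042 and the others -0.080 and -0.32, the widest disagreement between probes of 1 gene in the 16 genes with several kept probes, where the median range was 0.059. Psmg3 was at -0.037, and Psmg4 was detected on no array. Psmf1, the inhibitor of the core, is not listed in the annotation and was not analysed here. Psmc3ip, a recombination protein, and Psme3ip1, a binding protein of Psme3, meet the letters of the rule without being subunits, and were at 0.072 and -0.026.

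No partner of the proteasome outside the rule passed the test. Of 30 genes listed, 16 were measured, 8 above and 8 below 0, with a median of -0.0027. On the brightest probe of each gene, the one at an unadjusted p under 0.05 (6.25% of them) was Ecpas. This gene encodes the proteasome adaptor ECM29. Ecpas had 7.08, 7.16, 7.28, 6.78, 6.87 and 6.90 in LKB1 livers, against 7.50, 7.43, 7.22 and 7.05 in untreated livers. Its log2 fold change was -0.29 ± 0.12 (SE, limma adjusted p = 0.708), but 0.23 and 0.19 on its other kept probes. A dimmer probe of Uchl5 (-0.25) and a dimmer probe of Ubqln1 (0.22) also had an unadjusted p under 0.05 (limma). The brightest probes of Uchl5 and Ubqln1 were at -0.0097 and -0.039. Nfe2l1, the transcription factor NRF1 that raises proteasome genes when proteolysis is blocked, was at 0.12 ± 0.10 (SE), or at 0.22 without untreated replicate 1 and 0.072 without untreated replicate 2. Ubqln4, a shuttle for ubiquitinated proteins, was at 0.12 ± 0.10 (SE) and Pomp, the maturation factor of the core, at 0.053 ± 0.075 (SE). With array medians made equal, Nfe2l1 and Ubqln4 were at -0.10 and -0.071.

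Promoters are shown for the genes whose groups did not overlap (Psme2, Psmd4), for the ring partner of Psme2 (Psme1) and for the other gene of small p (Psmd9), to set their sequences beside those values. Each is the 250 bases before the transcription start from RefSeq (GRCm38.p6), 5′ to 3′ on the strand of the gene. The windows are chr14:55591022-55591271 on the minus strand for Psme2 (1 of 2 listed starts), chr14:55578244-55578493 on the plus strand for Psme1, chr3:95042615-95042864 on the minus strand for Psmd4 and chr5:123227940-123228189 on the plus strand for Psmd9. Capitals mark matches, on either strand, to TGANNNNGC (antioxidant response element, bound by NRF1 and NRF2 with small Maf proteins), CCAAT (bound by NF-Y) and GAAA followed by GAAA after any 2 bases (interferon-stimulated response element), which may overlap each other.
Psme2: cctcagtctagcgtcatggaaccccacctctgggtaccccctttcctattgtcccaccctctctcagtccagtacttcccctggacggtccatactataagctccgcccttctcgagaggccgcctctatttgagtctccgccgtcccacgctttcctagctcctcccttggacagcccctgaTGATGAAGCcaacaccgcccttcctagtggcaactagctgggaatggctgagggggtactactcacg
Psme1: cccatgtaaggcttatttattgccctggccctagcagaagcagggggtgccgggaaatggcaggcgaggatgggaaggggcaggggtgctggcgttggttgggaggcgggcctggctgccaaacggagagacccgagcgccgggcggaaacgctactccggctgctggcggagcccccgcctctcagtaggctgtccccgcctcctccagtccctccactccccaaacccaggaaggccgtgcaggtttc
Psmd4: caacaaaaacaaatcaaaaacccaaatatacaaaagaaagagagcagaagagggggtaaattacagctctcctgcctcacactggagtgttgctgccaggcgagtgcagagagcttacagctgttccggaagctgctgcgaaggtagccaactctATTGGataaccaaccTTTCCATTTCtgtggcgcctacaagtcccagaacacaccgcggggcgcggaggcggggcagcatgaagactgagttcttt
Psmd9: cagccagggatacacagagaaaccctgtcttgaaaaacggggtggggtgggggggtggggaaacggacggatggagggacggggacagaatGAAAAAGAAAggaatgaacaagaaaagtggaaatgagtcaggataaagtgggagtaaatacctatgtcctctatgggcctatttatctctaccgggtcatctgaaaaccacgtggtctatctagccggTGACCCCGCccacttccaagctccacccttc

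Psme2 holds 1 match to the antioxidant element, 67 bases before the start, and Psmd9 holds 1 at 31 bases. Psmd4 holds CCAAT on the other strand at 95 bases and an interferon-stimulated match at 80 bases, and Psmd9 holds an interferon-stimulated match at 159 bases. Psme1 holds none of these letters in its window. Promoters were found for 39 of the 47 genes, in 43 windows. The antioxidant letters occurred in 18 of these windows (41.9%), against 35.2% of all 32851 promoters, and CCAAT in 15 (34.9%), against 33.8%. The interferon-stimulated letters occurred in 3 (6.98%), against 2.98%. These are matches of letters only, and none was related to the fold changes by a test.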

How the data were processed

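Per the file headers, the deposited scanner table holds 1 linear intensity and 1 detection p-value for every probe on every array. The intensities were not yet normalized, and background subtraction before deposit is not stated. The authors' processed values, read as log2 from comparison with the intensities, have a median of 4.365 on the array of untreated replicate 1. The submitters' processing notes name lumi, with no version. Unmapped per-sample columns numbered 0.

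The function neqc (limma 3.58.1, R 4.3.3) corrected background by normexp using detection p-values, added an offset of 16, quantile-normalized and took log2. Of 45281 probes, 16803 were kept. Offset and residual background shrink the fold changes of dim probes. Of the probes, 34885 had 1 gene symbol, 18 several and 10378 none. A gene is its brightest kept probe, and levels of different probes are not compared. Groups were compared with lmFit and eBayes, two-sided and without covariates, and p-values were adjusted over kept probes (Benjamini-Hochberg). Each array was taken as 1 mouse, and 10 arrays limit the precision. Array sets come from clustering the 24495 probes detected on no array.

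Proteasome genes given mouse by mouse are the 2 of smallest p per role with Psmb5, Psmb6, Psmb7, Psmb10, Psme1, Psme2, Psmd4 and Psmd14. Partners named are the 3 of smallest p with Nfe2l1 and Pomp. Further genes were named after their values were seen, and so were the test between array sets, the split at a log2 intensity of 10 and the bounds of 1.2-fold and 1.3-fold, which replaced a bound between them. Alternatives changed background, offset, normalization, probe filter, array weights, blocks and single mice. Members and lists were chosen with earlier results of these data known. The fit was tested on simulated data, where it called 68.8% of changes of 1.5-fold, 92.8% of 2-fold and 98.8% of 3-fold. False calls averaged 11 over 16803 probes. Changes below 1.5-fold were not simulated. Noise was drawn independently for each probe, without array effects or a normalization step, so these rates may not carry over to the arrays. The result of 1 further promoter motif is not reported here.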

Additional observations from a re-analysis of the deposited data

Results flagged for a closer look

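Of 58 groups of values looked at, 4 held a mouse far from the others of its group, where chance gives about 1 group in 20. The genes looked at include Psmd1, Psmd11 and Psmc5, which were chosen after their values were seen. For these the rate of 1 in 20 does not hold. Untreated replicate 3 was high in Psmc3, at 10.8 against 10.61 to 10.63 in the other untreated mice, and low in Psmd1, at 11.85 against 12.44 to 12.56. LKB1 replicate 7 was high in Nfe2l1, at 10.42 against 10.11 to 10.21 in the other LKB1 mice. Untreated replicate 2 was low in Ubqln4, at 8.372 against 8.529 to 8.551.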

How the results depend on the processing

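No proteasome gene passed an adjusted p of 0.05 under any of the 22 alternatives (limma; with no filter on dim probes 5 of 47 had an unadjusted p under 0.05, as did 6.45% of all genes). Over all genes, 11 were called with array medians made equal, and 0 to 1 with 1 mouse left out, the call being made without LKB1 replicate 2; 0 were called under the other alternatives. The median of the proteasome genes was -0.231 with array medians made equal, where all genes were at -0.157, was 0.024 with the replicate block, and lay between -0.0329 and 0.00224 with 1 mouse left out. Stk11 was at -0.148 with array medians made equal. Of 572 values of 26 single genes, 0 passed the adjusted threshold, 30 moved by over 1 SD between mice, 21 of these with array medians made equal, and 39 had another sign, the cause of which was not tested. Psmb3, Psmc1, Psmc3, Psmd9, Psmd10, Psmd14, Psme2 and Psmg1 kept theirs under every alternative. All of these lay below 0 in the main fit. With array medians made equal 38 of 39 proteasome genes lay below 0, so that alternative could hardly change a negative sign. Whether the shared numbers 1, 2 and 4 pair the mice cannot be told from 3 pairs. Deviations of same-numbered mice correlated at 0.146, 0.239 and -0.166. The mice numbered 1 and 2 were in array set A, while those numbered 4 were in different sets. Of the untreated mice with a shared number, 1 of 3 was closest to the LKB1 mouse of its number. With the replicate block the LKB1 difference rests on these 3 pairs alone, and 0 proteasome genes were called. Genes near background, such as Psmd2 and Psmd8, have wide intervals.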

Other observations

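Of the 83 probes of the rule, 22 were not kept, and 17 of these were detected on no array. In 10 genes a kept probe stood beside one that was not, among them Psma5, Psmb2, Psmb3 and Psmc2, so that an undetected probe does not show an absent transcript. None of the 22 had an unadjusted p under 0.05 (limma, 0 probes) when the filter was left off.

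Kupffer cell and macrophage markers were higher in LKB1 livers in all 10 measured of 12 listed, none past the test, with a median log2 fold change of 0.274. Their summed intensity was 3503 to 4711 in LKB1 livers and 2402 to 4188 in untreated livers. Red cell genes were lower in 3 of 3 measured, with a median of -0.142 and summed intensities of 7331 to 26220 in LKB1 livers and 13290 to 21480 in untreated livers. Their part in the proteasome values was not tested.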
